A study of Mus musculus with 116 samples.

Results

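The genes *Eomes*, *Neurog1*, *Neurog2*, *Insm1*, *Neurod1*, *Neurod4*, *Gadd45g*, *Mfng*, *Dll1* and *Dll3*, which mark the step from a radial glia progenitor (RGP) to an intermediate progenitor and a young projection neuron, were followed across genotypes and ages in the developing mouse neocortex. They were chosen by name and make up 10 of the 53379 genes counted. Their values come from 55 of the 116 libraries of the series, namely those of the 68 green libraries in which at least 1000000 reads, and at least 60% of all reads, aligned uniquely. The study asked whether *Eed*, a core subunit of Polycomb repressive complex 2 (PRC2), acts within single cells of the RGP lineage or through the tissue around them. Mosaic analysis with double markers (MADM) labels sparse cells green, red or yellow by recombination between chromosomes. In control-MADM (MADM7-GT/TG;Emx1-cre in the labels) all cells were *Eed*+/+. *Eed*-MADM mice (MADM7-GT/TG,Eed;Emx1-cre) held sparse green *Eed*-/- cells beside yellow *Eed*+/- and red *Eed*+/+ cells in heterozygous tissue. In cKO-*Eed*-MADM (MADM7-GT,Eed/TG,Eed;Emx1-cre) every cell of the recombined lineage was *Eed*-/-, whatever its color. All 3 paradigms shared the MADM cassettes on chromosome 7 and *Emx1*-cre, which is active in cortical progenitors and passes the recombined alleles to their progeny but not to interneurons that migrate in. Green cells also carried 2 paternal copies of chromosome 7 in every paradigm, the chromosome of *Dll3* and of *Eed*. The labels give the strain as CD1, and the methods of the study describe a mixed background of C57BL/6 and CD1. Ages labeled E12, E13 and E16 are called E12.5, E13.5 and E16.5 here, and P0 is the day of birth. From the youngest age to the oldest, control-MADM was represented by 5, 2, 3 and 5 libraries, *Eed*-MADM by 8, 2, 5 and 9, and cKO-*Eed*-MADM by 4 at every age. Each library is bulk Smart-Seq2 of GFP+ cells sorted from pooled cortices of 2 to 3 animals, so that a p-value measures the spread between such pools.

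RGPs divide at the ventricle, and many of their daughters become intermediate progenitors, which divide once or a few times more and give projection neurons. The proneural basic helix-loop-helix (bHLH) factors *Neurog1* and *Neurog2* start this step and switch on the T-box factor *Eomes* (Tbr2), the zinc finger factor *Insm1*, and the downstream bHLH factors *Neurod1* and *Neurod4*. Cells that express *Neurog2* also present the Notch ligand *Dll1*, which keeps neighboring RGPs undifferentiated. *Dll3*, a divergent family member, acts inside the cell, and *Mfng* is a glycosyltransferase that modifies Notch and its ligands. *Gadd45g*, a small stress-linked protein, is a known *Neurog2* target in newborn neurons. PRC2 deposits methylation on lysine 27 of histone H3 and is known for silencing developmental regulators, many of which have promoters rich in CG dinucleotides.

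Between 865832 and 7249098 reads fell on genes in a library used (median 4868545), and 15720 to 22465 genes had a read. Levels are counts in parts of 1000000 reads on genes, after scaling by the trimmed mean of M values (CPM). Without molecular identifiers in Smart-Seq2, a limit drawn from a count of 0 covers counting error only. Lysis buffer received the E12.5 cells and RNA extraction buffer the later ones, so that this age cannot be told apart from its collection. At E12.5 the libraries also differed widely in genes of other cells, with summed red blood cell genes at 2.91 to 2075, 12.7 to 8792 and 24.8 to 11190 CPM in control-MADM, in *Eed*-MADM, then in cKO-*Eed*-MADM. The counts of *Eed* cover the whole gene, including exons outside the deletion. Its level was 40.5 ± 9.14 CPM (SD, n = 3) in control-MADM, 17.5 ± 4.28 CPM (SD, n = 5) in *Eed*-MADM, against 18.4 ± 5.72 CPM (SD, n = 4) in cKO-*Eed*-MADM at E16.5, and the green libraries of both mutant paradigms lay below all control-MADM libraries from E13.5 on. At E12.5 cKO-*Eed*-MADM lay below control-MADM too, while *Eed*-MADM (31.5 to 87 CPM) overlapped with it (80.2 to 159 CPM). The log2 fold change of *Eed* in cKO-*Eed*-MADM was -1.34, -1.64, -1.10 and -1.32 from E12.5 to P0 (edgeR adjusted p = 0.282, 0.0933, 0.0314 and 0.000378), and in *Eed*-MADM it was -0.81, -0.69, -1.22 and -0.93 (adjusted p = 1, 0.886, 0.0889 and 0.0132). The study also removed libraries for poor correlation with replicates or for many reads in the deleted part of *Eed*, a selection not made here. The cortical genes *Emx1*, *Emx2*, *Lhx2* and *Neurod6* had reads in every group.

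To show the start regions of genes that differed in either direction, the 250 bases before the RefSeq start site (GRCm38, 5′ to 3′ on the strand of the gene) are given for 2 genes that were lower in cKO-*Eed*-MADM, *Eomes* (chr9:118477939-118478188, + strand) and *Neurog2* (chr3:127632886-127633135, + strand), and for 2 that were read in cKO-*Eed*-MADM at P0 where control-MADM had few reads or none, *Neurog1* (chr13:56252181-56252430, - strand) and *Neurod4* (chr10:130280255-130280504, - strand). Capitals mark the dinucleotide CG.
Eomes: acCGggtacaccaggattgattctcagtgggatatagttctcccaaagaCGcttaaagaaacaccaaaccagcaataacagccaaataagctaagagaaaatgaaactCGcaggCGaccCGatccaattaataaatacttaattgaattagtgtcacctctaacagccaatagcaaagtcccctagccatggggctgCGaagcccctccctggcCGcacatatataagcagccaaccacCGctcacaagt
Neurog2: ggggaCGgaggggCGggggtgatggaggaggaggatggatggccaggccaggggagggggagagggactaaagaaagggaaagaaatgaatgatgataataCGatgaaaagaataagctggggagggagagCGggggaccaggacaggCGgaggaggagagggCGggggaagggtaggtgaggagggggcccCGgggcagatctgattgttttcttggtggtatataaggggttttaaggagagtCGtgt
Neurog1: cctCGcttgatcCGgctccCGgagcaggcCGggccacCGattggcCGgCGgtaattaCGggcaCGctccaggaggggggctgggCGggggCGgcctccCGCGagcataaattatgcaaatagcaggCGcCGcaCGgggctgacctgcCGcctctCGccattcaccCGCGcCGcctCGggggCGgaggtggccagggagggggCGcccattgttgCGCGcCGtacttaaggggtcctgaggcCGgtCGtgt
Neurod4: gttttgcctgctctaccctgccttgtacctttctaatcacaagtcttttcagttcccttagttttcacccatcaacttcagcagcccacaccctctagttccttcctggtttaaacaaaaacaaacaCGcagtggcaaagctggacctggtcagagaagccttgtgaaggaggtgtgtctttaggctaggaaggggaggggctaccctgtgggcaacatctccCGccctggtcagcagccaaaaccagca
The windows of *Eomes* and *Neurog2* hold 8 CG each, that of *Neurog1* 29 and that of *Neurod4* 2. Of the 32817 RefSeq windows of this length 92.1% hold CG, with a median of 6, and 93.2% of them hold fewer than *Neurog1* and 18.8% fewer than *Neurod4*. The E-box CANNTG, which bHLH factors bind and which reads the same on both strands, is in 66.2% of all windows and in none of these 4. It is present in the windows of *Neurod1* (1), *Gadd45g* (3), *Dll1* (3) and *Dll3* (2), and a match describes letters and not a bound site. In the same order, these windows, which are not printed, hold 22, 16, 13 and 10 CG. *Insm1*, with the widest fall at P0, and *Mfng* were not searched.

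**Figure D1:**
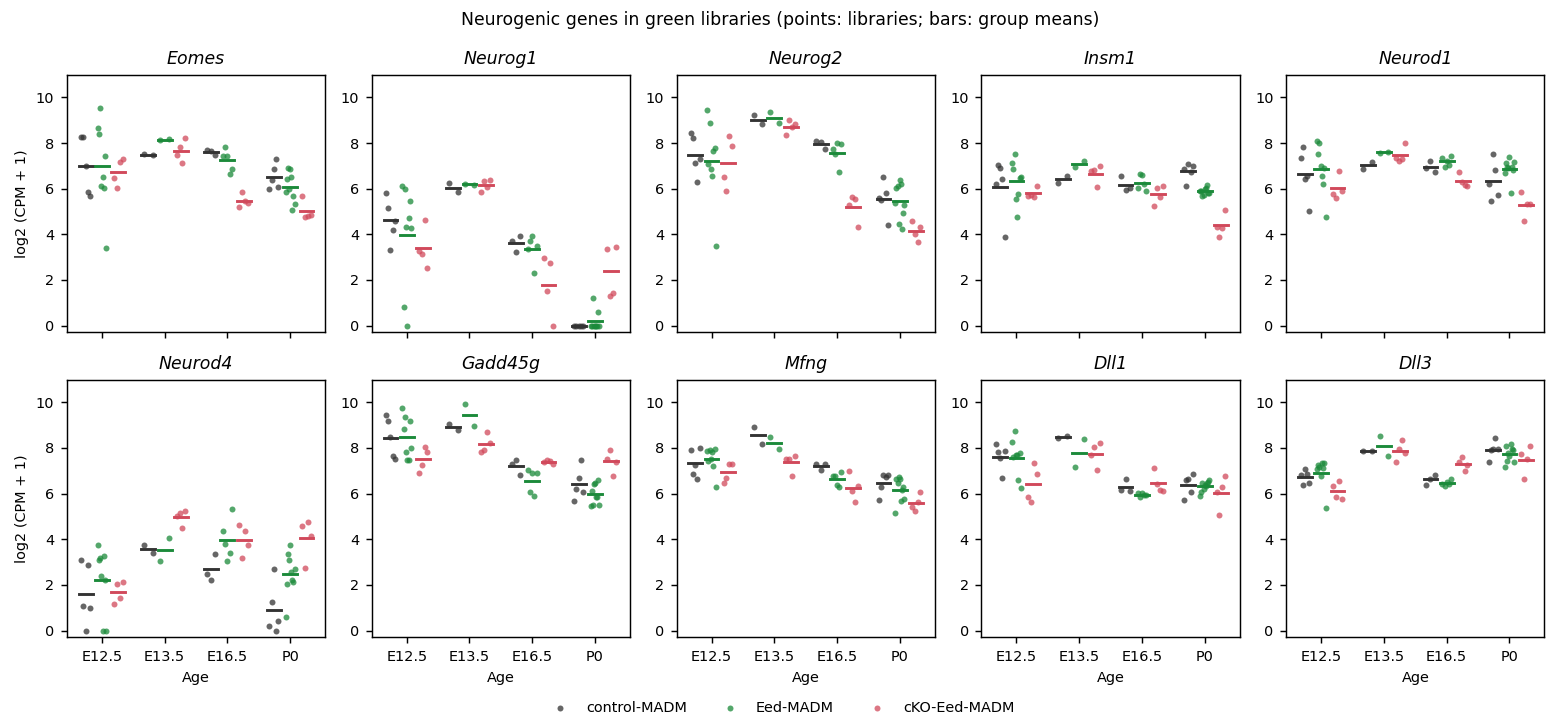
Level of each gene in every green library, as log2 of CPM plus 1 against age, with points for libraries and bars for the mean of the log2 values of a group. In cKO-*Eed*-MADM the points of *Eomes* and *Neurog2* lie below the other paradigms at E16.5, and *Neurog1* is at 0 in all 5 control-MADM libraries of P0 but not in the 4 of cKO-*Eed*-MADM.

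Most of the genes had their highest group mean at E13.5. The group mean was highest there for 7 of 10 genes in control-MADM, for 9 in *Eed*-MADM, and for all 10 in cKO-*Eed*-MADM. The share of all genes with their highest mean at E13.5 was not computed, so that these counts have no background. They are not a trait shown to be particular to the 10 genes. The ranking of ages includes E12.5, whose cells went into another buffer. At E13.5 it rests on 2 libraries each of control-MADM and *Eed*-MADM. Margins could be small, as for *Neurod1* in control-MADM, with means of 118.9, 130.9 and 123.2 CPM from E12.5 to E16.5. Per kilobase of exon, the control-MADM means at E13.5 ran from *Gadd45g* (416 CPM per kilobase) through *Neurog2* (234), *Mfng* (137), *Dll1* (85.1), *Dll3* (82), *Neurod1* (48), *Eomes* (42.9), *Neurog1* (38.7) and *Insm1* (27.3) to *Neurod4* (3.29). At P0 the same group had *Dll3* (87.3) and *Gadd45g* (80.1) at the top on this scale, then *Insm1* (35.4), *Neurod1* (34.2) and *Mfng* (32.2), with *Neurod4* at 0.435 and *Neurog1* without a read. The counts do not use strand, and *Neurod1*, *Eomes* and *Dll1* overlap other annotated genes (*Cerkl* and *Gm26755*, *Gm33460*, and *A930024N18Rik*), so that their counts are uncertain where the genes share sequence.

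Loss of *Eed* in the whole tissue was compared with control-MADM at each age. At E16.5, *Eomes*, *Neurog2* and *Mfng* fell and *Dll3* rose in cKO-*Eed*-MADM, that is 3 lower and 1 higher of 10 genes tested, where 8.58% of all 13359 genes tested were called (6.16% higher and 2.42% lower). At P0, *Eomes*, *Neurog2*, *Insm1*, *Neurod1* and *Mfng* fell and *Neurod4* and *Gadd45g* rose, 5 lower and 2 higher of the 9 that passed the filter on low counts, against 24.2% of all 14161 genes (14.2% higher and 10.0% lower). *Neurog1* did not pass it at P0. The median log2 fold change of the genes was -0.48 at E16.5 and -0.90 at P0 (of the 9 that passed), beside 0.00103 and -0.0078 over all genes tested, after -0.59 (E12.5) and 0.09 (E13.5), beside 0.0487 and 0.0468. At E12.5 all 10 log2 fold changes were negative, and at E13.5 4 of 10 were. No gene of the 10 was called at E12.5 or E13.5 with edgeR, where 0% and 0.0372% of all genes were called. At an unadjusted p under 0.05 there were 1 (E12.5) and 3 (E13.5), and DESeq2 called 0 and 1, the latter being *Mfng*. Here and below, counts at an unadjusted p, in DESeq2 or in alternative fits stand without the share of all genes at the same criterion. The same holds for counts of negative fold changes. None of these counts can be read against a background. In bulk libraries, fewer cells of a type and less RNA per cell cannot be told apart.

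**Figure D2:**
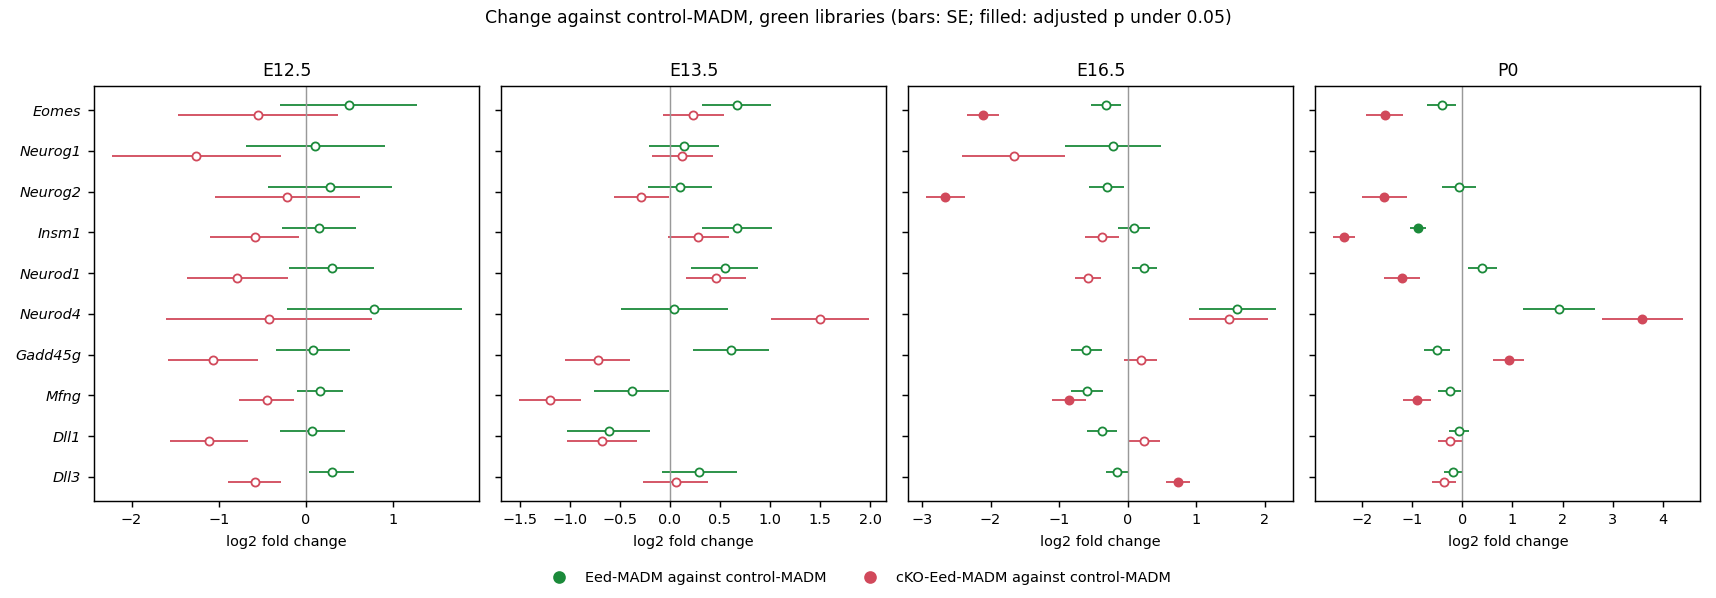
Log2 fold change against control-MADM for each gene (rows) at 4 ages (panels), with standard errors as bars, green for *Eed*-MADM and red for cKO-*Eed*-MADM, and filled points where the edgeR adjusted p is under 0.05. Filled points are found at E16.5 and P0, with *Eomes* and *Neurog2* lowest at E16.5 and *Neurod4* highest at P0; *Neurog1* was not tested at P0.

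*Eomes*, the factor that defines intermediate progenitors, was 4.32-fold lower in cKO-*Eed*-MADM than in control-MADM at E16.5. Its CPM were 208, 198 and 178 in the control-MADM libraries, 172, 226, 171, 100.3 and 115 in *Eed*-MADM, against 35.6, 57.5, 42.4 and 40.0 in cKO-*Eed*-MADM. All 4 cKO-*Eed*-MADM libraries lay below every library of the other paradigms (log2 fold change -2.11, SE 0.24, edgeR adjusted p = 1.11e-05 against control-MADM). At P0 the values were 62.5, 82.7, 117, 158 and 67.1 in control-MADM, 32.1 to 119.8 (median 61.6) in *Eed*-MADM, against 50.6, 26, 27 and 27.7 in cKO-*Eed*-MADM. The cKO-*Eed*-MADM values lay under all those of control-MADM, and 3 of the 4, all but replicate 1, also lay under the lowest of *Eed*-MADM. The fall against control-MADM was 2.9-fold (log2 fold change -1.54, SE 0.37, edgeR adjusted p = 0.00405). At E13.5 the same gene had 181 and 176 in control-MADM, 282 and 285 in *Eed*-MADM, against 179, 223, 140.3 and 297 in cKO-*Eed*-MADM, with overlap between cKO-*Eed*-MADM and both other paradigms. At E12.5 the libraries of each group spread from 49.9 to 304, 9.56 to 730.0 and 65.3 to 158 CPM from control-MADM to cKO-*Eed*-MADM.

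*Neurog2*, the main proneural factor of the dorsal cortex, showed the lowest log2 fold change of the 10 genes at E16.5. Its CPM were 268, 259 and 213 in control-MADM, 212, 180.2, 253, 104 and 251 in *Eed*-MADM, against 37.9, 49.3, 45.9 and 19.1 in cKO-*Eed*-MADM. The cKO-*Eed*-MADM libraries did not overlap with either paradigm, and the gene was 6.33-fold lower than in control-MADM (log2 fold change -2.66, SE 0.29, edgeR adjusted p = 7.91e-06). At P0 the CPM were 47.3, 44.3, 89.8, 55.1 and 20.1 in control-MADM, 17.7 to 82.6 (median 40.7) in *Eed*-MADM, against 22.9, 15.3, 11.6 and 18.9 in cKO-*Eed*-MADM. Here the groups overlapped, since control-MADM replicate 6 had less than the highest cKO-*Eed*-MADM library, and the fall was 2.94-fold (log2 fold change -1.55, SE 0.44, edgeR adjusted p = 0.0129). Without the filter on low counts the adjusted p at P0 was 0.0504.

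*Neurog1*, the second proneural gene of this family, fell from E13.5 to E16.5 in every paradigm, and at P0 it was read mainly in cKO-*Eed*-MADM. At E13.5 it had 73.9 and 56.7 CPM in control-MADM, 73.2 and 71.3 in *Eed*-MADM, against 56, 80.6, 65.7 and 82.7 in cKO-*Eed*-MADM, with all groups overlapping. At E16.5 the values were 12, 8.3 and 14.2 in control-MADM, 9.34, 12, 14, 3.9 and 10.4 in *Eed*-MADM, against 6.72, 1.83, 5.68 and 0 in cKO-*Eed*-MADM. All cKO-*Eed*-MADM libraries lay below those of control-MADM, without passing the test (log2 fold change -1.66, SE 0.75, edgeR adjusted p = 0.219). At P0 no read of *Neurog1* was counted in the 5 control-MADM libraries and reads were counted in 2 of 9 *Eed*-MADM libraries, while all 4 cKO-*Eed*-MADM libraries held reads, 123 in all, at 9.1, 1.42, 1.71 and 10.0 CPM. Against a floor of 3 counts over the control-MADM group (0.104 CPM) the cKO-*Eed*-MADM mean of 5.57 CPM was at least 53.4-fold higher. Its mean over all P0 libraries, 7.39 counts, was under the minimum of 10, so that it stands outside the counts of called genes at that age.

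The zinc finger factor *Insm1*, which drives progenitors away from the ventricular surface, differed from control-MADM at P0 in both mutant paradigms. Its CPM at P0 were 114, 68.4, 136, 106 and 125 in control-MADM, 50.5 to 69.7 (median 58.8) in *Eed*-MADM, against 18.9, 13.9, 18.6 and 32.2 in cKO-*Eed*-MADM. The cKO-*Eed*-MADM libraries lay below all others, 5.14-fold under control-MADM (log2 fold change -2.36, SE 0.22, edgeR adjusted p = 2.76e-08). In *Eed*-MADM the gene was 1.84-fold lower than in control-MADM (log2 fold change -0.88, SE 0.16, edgeR adjusted p = 0.00405), where the groups overlapped only through control-MADM replicate 2. At E16.5 the CPM were 92.6, 60.1 and 64.5 in control-MADM, 64.1, 99.6, 95, 71.9 and 58.4 in *Eed*-MADM, against 36.6, 65.1, 48.3 and 67.5 in cKO-*Eed*-MADM. These groups overlapped, and the difference between cKO-*Eed*-MADM and control-MADM did not pass the test (log2 fold change -0.38, SE 0.25, edgeR adjusted p = 0.437).

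*Neurod1*, which promotes the differentiation of newborn neurons, fell in cKO-*Eed*-MADM at P0. Its values there were 73.1, 43.4, 185, 113 and 52.1 CPM in control-MADM, 55.6 to 168 (median 124) in *Eed*-MADM, against 57.4, 23.2, 38.7 and 39.6 in cKO-*Eed*-MADM. Control-MADM spread widely and overlapped with cKO-*Eed*-MADM (log2 fold change -1.20, SE 0.36, edgeR adjusted p = 0.0171). At E16.5 the CPM were 119.5, 146 and 104 in control-MADM, 161, 121, 146, 131 and 173 in *Eed*-MADM, against 106, 78, 69.7 and 69.3 in cKO-*Eed*-MADM. The cKO-*Eed*-MADM libraries lay below all of *Eed*-MADM and overlapped with control-MADM. This last difference did not pass the threshold (log2 fold change -0.58, SE 0.19, edgeR adjusted p = 0.0633), with an adjusted p of 0.0398 in DESeq2 and of 0.0135 without cKO-*Eed*-MADM replicate 1. The P0 call was lost without control-MADM replicate 4 or cKO-*Eed*-MADM replicate 2, with log2 fold changes of -0.79 and -1.03 and adjusted p of 0.0528 to 0.0635, and without the filter on low counts (log2 -1.24, adjusted p = 0.0632).

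*Neurod4*, a bHLH factor that follows the proneural genes, moved the other way. At P0 its CPM were 0.163, 1.39, 5.4, 0 and 0.33 in control-MADM, 0.496 to 12.4 (median 4.86) in *Eed*-MADM, against 22.7, 5.7, 26.2 and 16.4 in cKO-*Eed*-MADM. Every cKO-*Eed*-MADM library lay above every control-MADM library, 12-fold on the fitted scale (log2 fold change 3.59, SE 0.81, edgeR adjusted p = 0.00207). *Eed*-MADM overlapped with both, and its difference from control-MADM was not called (log2 fold change 1.93, SE 0.71, edgeR adjusted p = 0.162), but was without control-MADM replicate 4 (log2 fold change 3.51, edgeR adjusted p = 0.0222). At E16.5 the values were 4.61, 3.6 and 9.13 in control-MADM, 19.3, 12.7, 7.32, 9.55 and 39.5 in *Eed*-MADM, against 23.4, 8.00, 19.5 and 12.3 in cKO-*Eed*-MADM, with overlap between all groups (log2 fold change 1.47, SE 0.57, edgeR adjusted p = 0.137 for cKO-*Eed*-MADM against control-MADM). At E13.5 they were 12.6 and 9.45 in control-MADM, 7.3 and 15.5 in *Eed*-MADM, against 31, 35, 21.8 and 36.7 in cKO-*Eed*-MADM. At that age cKO-*Eed*-MADM held the 4 highest libraries, without passing the test in green cells (log2 fold change 1.5, SE 0.49, edgeR adjusted p = 0.262).

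*Gadd45g* was also higher in cKO-*Eed*-MADM at P0, with 50.4, 72.4, 103, 179 and 65.3 CPM in control-MADM, 43.2 to 97.1 (median 57.4) in *Eed*-MADM, against 182, 243, 109.7 and 168 in cKO-*Eed*-MADM. All 4 cKO-*Eed*-MADM libraries exceeded the 9 of *Eed*-MADM, while control-MADM replicate 5 lay within their range (log2 fold change 0.92, SE 0.31, edgeR adjusted p = 0.0351 against control-MADM). That call was lost without any 1 of control-MADM replicates 1, 2, 4 and 6 or cKO-*Eed*-MADM replicates 1, 2 and 4, with log2 fold changes of 0.72 to 0.96 and adjusted p of 0.05 to 0.113. It was also lost without the filter on low counts (log2 0.88, adjusted p = 0.122) and in a fit of these 2 paradigms alone (0.92, adjusted p = 0.0557). At E13.5 the direction was the opposite, with CPM of 529 and 447 in control-MADM, 984 and 503 in *Eed*-MADM, against 225, 242, 409 and 301 in cKO-*Eed*-MADM. Libraries of cKO-*Eed*-MADM were the 4 lowest there (log2 fold change -0.72, SE 0.32, edgeR adjusted p = 0.447 against control-MADM), and DESeq2 called the difference from *Eed*-MADM (adjusted p = 0.0208). At E16.5 the CPM were 158, 177 and 112 in control-MADM, 131, 65.2, 119, 59 and 118 in *Eed*-MADM, against 165, 174, 169 and 157 in cKO-*Eed*-MADM, where cKO-*Eed*-MADM lay inside the control-MADM range and above all *Eed*-MADM libraries.

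Of the Notch ligands, *Dll3* rose and *Dll1* was not called in cKO-*Eed*-MADM at E16.5. *Dll3* had 83.4, 98.8 and 112 CPM in control-MADM, 84.7, 80.6, 91.1, 85.2 and 99.7 in *Eed*-MADM, against 168, 193, 125 and 149.5 in cKO-*Eed*-MADM, whose libraries lay above all others (log2 fold change 0.73, SE 0.17, edgeR adjusted p = 0.0105 against control-MADM). Without control-MADM replicate 1 the log2 fold change was 0.61 and the adjusted p 0.0824. At P0 its CPM were 165, 239.5, 249, 343 and 247 in control-MADM, 145 to 289 (median 216) in *Eed*-MADM, against 210.1, 97.9, 182 and 274 in cKO-*Eed*-MADM, with overlap between all groups (log2 fold change -0.36, SE 0.24, edgeR adjusted p = 0.288 against control-MADM). The CPM of *Dll1* were 70.9, 98 and 67.5 in control-MADM, 64.7, 57, 63.5, 60 and 59.9 in *Eed*-MADM, against 139.8, 85.1, 70.5 and 68.5 in cKO-*Eed*-MADM at E16.5. At P0 they were 52.5, 94.6, 98.4, 66.8 and 114 in control-MADM, 59.3 to 94.9 (median 83.1) in *Eed*-MADM, against 65.2, 32.8, 77.3 and 107 in cKO-*Eed*-MADM. It overlapped between control-MADM and cKO-*Eed*-MADM at both ages, with log2 fold changes of 0.24 ± 0.23 and -0.25 ± 0.24 (SE).

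*Mfng*, which tunes how Notch responds to its ligands, was lower in cKO-*Eed*-MADM at E16.5 and P0. It had 159, 130.4 and 158 CPM in control-MADM, 109, 108, 81.9, 77 and 122 in *Eed*-MADM, against 125, 69, 48.3 and 79 in cKO-*Eed*-MADM at E16.5 (log2 fold change -0.86, SE 0.24, edgeR adjusted p = 0.0332). At P0 the CPM were 51.9, 77.1, 111, 106 and 112 in control-MADM, 34.5 to 107 (median 77.7) in *Eed*-MADM, against 41.1, 36.3, 48.8 and 67 in cKO-*Eed*-MADM (log2 fold change -0.90, SE 0.28, edgeR adjusted p = 0.023). Control-MADM and cKO-*Eed*-MADM did not overlap at E16.5 and did at P0. Neither call was firm: the first was lost without any 1 of cKO-*Eed*-MADM replicates 2, 3 and 4 or of the 3 control-MADM replicates (log2 fold change -0.94 to -0.68, adjusted p 0.059 to 0.12), and the second without cKO-*Eed*-MADM replicates 1, 2 or 3 or control-MADM replicates 4 or 6 (-0.90 to -0.79, adjusted p 0.0522 to 0.07). At E13.5 the CPM of *Mfng* were 489 and 286 in control-MADM, 352 and 244 in *Eed*-MADM, against 184, 184, 108 and 200.3 in cKO-*Eed*-MADM. The cKO-*Eed*-MADM libraries were below all others, but the edgeR adjusted p against control-MADM was 0.143, against 0.0206 in DESeq2 and 0.0334 without control-MADM replicate 3 (log2 fold change -1.56).

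Sparse loss of *Eed* was compared with the same control-MADM libraries. Green *Eed*-MADM cells were not called different from control-MADM in any of the 10 genes at E12.5, E13.5 and E16.5, where edgeR called 0%, 0% and 0.255% of all genes, and DESeq2 also called none of the 10. The E12.5 comparison includes the *Eed*-MADM libraries whose *Eed* level overlapped with control-MADM. At an unadjusted p under 0.05 there were 0, 0 and 3 of the genes, the 3 being *Neurod4*, *Gadd45g* and *Mfng*. At P0, *Insm1* alone of the 9 genes tested was called, in a contrast with 1.75% of all genes called and 0.233% lower. For *Eomes* and *Neurog2* the log2 fold changes of *Eed*-MADM were -0.32 ± 0.22 and -0.31 ± 0.26 (SE) at E16.5 and -0.40 ± 0.29 and -0.06 ± 0.34 at P0. Both comparisons with control-MADM share its libraries, so that their values are not independent.

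The 2 forms of *Eed* loss were also compared directly, since green cells are *Eed*-/- in both. At E12.5 and E13.5 edgeR called none of the 10 genes, beside 0% and 0.0223% of all genes, with 4 and 3 at an unadjusted p under 0.05 and 0 and 1 in DESeq2. The median log2 fold change of the 10 genes in cKO-*Eed*-MADM against *Eed*-MADM was -1.06 at E12.5, with all 10 negative, and -0.31 at E13.5, with 9 negative. Over all genes tested the median was 0.00956 at E12.5 and 0.0273 at E13.5. At E16.5, *Eomes* (-1.79 ± 0.22 log2, SE), *Neurog2* (-2.35 ± 0.27) and *Neurod1* (-0.82 ± 0.17) were lower in cKO-*Eed*-MADM than in *Eed*-MADM, and *Gadd45g* (0.80 ± 0.21) and *Dll3* (0.89 ± 0.15) were higher, with edgeR adjusted p from 9.41e-06 to 0.0245. These are 3 lower and 2 higher of 10, beside 7.04% of all genes (4.45% higher and 2.58% lower). At P0, *Eomes* (-1.14 ± 0.34), *Neurog2* (-1.50 ± 0.41), *Insm1* (-1.48 ± 0.20) and *Neurod1* (-1.60 ± 0.34) were lower and *Gadd45g* (1.43 ± 0.27) was higher, with adjusted p from 8.37e-06 to 0.0208. That is 4 lower and 1 higher of 9, beside 19.5% of all genes (11.2% higher and 8.26% lower). The *Gadd45g* call at E16.5 was lost without cKO-*Eed*-MADM replicates 2 or 3 or *Eed*-MADM replicates 2 or 4 (log2 0.66 to 0.79, adjusted p 0.054 to 0.0718), and that of *Eomes* at P0 without cKO-*Eed*-MADM replicates 2, 3 or 4 (log2 -1.05, adjusted p 0.061 to 0.0813). Without the filter on low counts, the P0 calls of *Eomes* (-1.16, adjusted p = 0.071) and *Neurog2* (-1.52, adjusted p = 0.0522) were lost as well. *Dll1* at E16.5 (0.61 ± 0.20, adjusted p = 0.0746) was called in DESeq2 (0.0402) and in edgeR without cKO-*Eed*-MADM replicate 4 (0.73, 0.0462). *Neurod4* at P0 (1.66 ± 0.63, adjusted p = 0.066) was called in DESeq2 (0.0453), in a fit of these paradigms alone (0.0153), and without cKO-*Eed*-MADM replicate 2 (1.94, 0.0398).

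**Figure D3:**
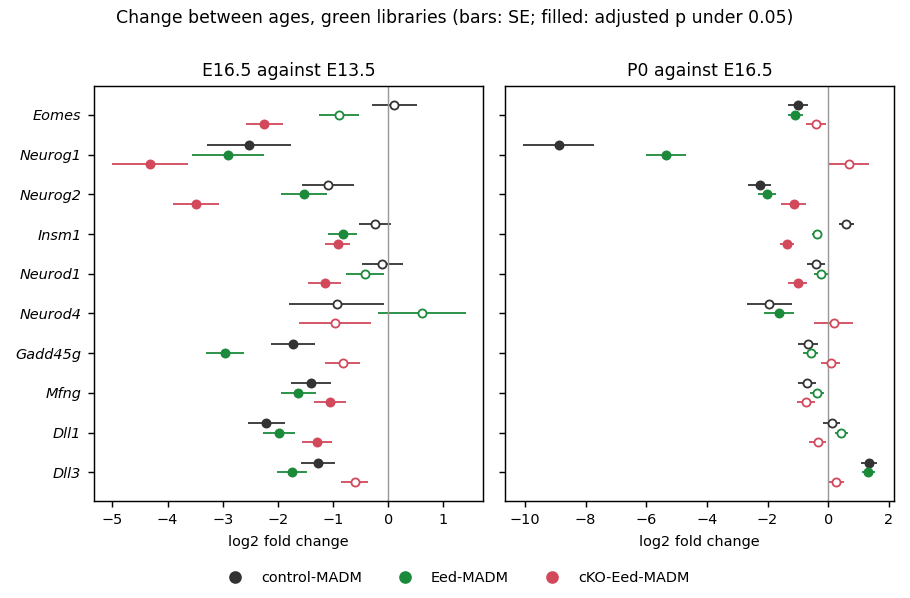
Log2 fold change between ages for each gene (rows) within control-MADM (black), *Eed*-MADM (green) and cKO-*Eed*-MADM (red), with standard errors as bars and filled points where the edgeR adjusted p is under 0.05. From E13.5 to E16.5 all points but *Eomes* in control-MADM and *Neurod4* in *Eed*-MADM lie below 0, and from E16.5 to P0 *Dll3* lies above 0 in control-MADM and *Eed*-MADM; the position of *Neurog1* in control-MADM there depends on the fit, since no read was counted at P0.

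From E13.5 to E16.5 at least 5 of the 10 genes fell in each paradigm. In control-MADM, *Neurog1*, *Gadd45g*, *Mfng*, *Dll1* and *Dll3* were lower at E16.5, 5 of 10, beside 15.8% of all 13926 genes called and 7.32% lower. In *Eed*-MADM 7 of 10 were lower (19.3% of all genes called, 9.28% lower), with *Neurog2* and *Insm1* added to those 5. In cKO-*Eed*-MADM 7 of 10 were lower as well (17.5% called, 7.60% lower), namely *Eomes*, *Neurog1*, *Neurog2*, *Insm1*, *Neurod1*, *Mfng* and *Dll1*. No gene of the 10 was called higher in this interval. The log2 fold change was positive for *Eomes* in control-MADM and for *Neurod4* in *Eed*-MADM. The fall of *Dll1* was -2.21 ± 0.34, -1.98 ± 0.29 and -1.29 ± 0.27 (log2, SE) in control-MADM, then *Eed*-MADM, then cKO-*Eed*-MADM, each with an edgeR adjusted p of at most 0.000636. In control-MADM the calls of *Neurog1* and *Mfng* were lost without E13.5 replicate 1 (adjusted p up to 0.16 and 0.241), and 3 of the 10 genes then remained called. That of *Neurog1* was also lost without E16.5 replicates 1 or 2 and in DESeq2 (adjusted p = 0.0724). In *Eed*-MADM those of *Neurog2* and *Insm1* were lost without E13.5 replicate 2 (adjusted p = 0.162 and 0.0818), and that of *Insm1* also without E13.5 replicate 6 (0.108) and with the replicate number as a block (0.0907).

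The change of *Eomes* and *Neurog2* over this interval differed between cKO-*Eed*-MADM and control-MADM. *Eomes* was at 178 ± 3.07 CPM (SD, n = 2) and 195 ± 15.3 CPM (SD, n = 3) in control-MADM at E13.5 and E16.5, while in cKO-*Eed*-MADM it went from 209.9 ± 67.1 CPM (SD, n = 4) to 43.9 ± 9.49 CPM (SD, n = 4). The difference of the 2 changes was -2.36 ± 0.54 (log2, SE; edgeR adjusted p = 0.00657). For *Neurog2* it was -2.39 ± 0.64 (adjusted p = 0.0233), as control-MADM went from 521 ± 97.3 CPM (SD, n = 2) to 247 ± 29.7 CPM (SD, n = 3) and cKO-*Eed*-MADM from 427 ± 80.4 CPM (SD, n = 4) to 38 ± 13.5 CPM (SD, n = 4). Both genes fell more in cKO-*Eed*-MADM, 2 of 10 beside 4.30% of all genes called and 1.94% lower. This test leans on the 2 control-MADM libraries of E13.5: without replicate 1 the adjusted p rose to 0.0849 for *Eomes* and 0.13 for *Neurog2*, and without replicate 3 that of *Neurog2* was 0.0634, while the differences stayed between -2.62 and -2.20. No difference of this kind between *Eed*-MADM and control-MADM was called for the 10 genes (0.201% of all genes), with 1 at an unadjusted p under 0.05 (*Gadd45g*) and none in DESeq2.

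From E16.5 to P0, *Dll3* rose in control-MADM and *Eed*-MADM while the proneural genes fell further. In control-MADM, *Eomes* (-1 ± 0.32 log2, SE) and *Neurog2* (-2.26 ± 0.39) fell, *Neurog1* went from 11.5 ± 2.99 CPM (SD, n = 3) to no read, and *Dll3* rose (1.34 ± 0.26), that is 3 lower and 1 higher of 10 beside 14.1% of all genes called, 8.31% higher and 5.77% lower. In *Eed*-MADM the same 4 genes were called, with *Neurod4* lower too, 4 lower and 1 higher beside 21.0% (12.1% higher and 8.91% lower). In cKO-*Eed*-MADM, *Neurog2*, *Insm1* (-1.36 ± 0.24) and *Neurod1* (-1.01 ± 0.30) fell, 3 of 10 beside 17.7% called and 8.14% lower, and the edgeR adjusted p of *Neurog2* there was 0.0491. That call of *Neurog2* was lost in DESeq2 (0.0524) and in most fits without 1 library, and only 1 of the 10 genes was called in cKO-*Eed*-MADM without E16.5 replicate 1, P0 replicate 2 or P0 replicate 3, since *Neurod1* was then lost too (adjusted p up to 0.0771). The fall of *Eomes* in control-MADM was lost without any of its 3 E16.5 libraries or P0 replicates 1, 2 or 6 (log2 -1.06 to -0.88, adjusted p up to 0.1), and that of *Neurod4* in *Eed*-MADM without E16.5 replicate 5 (log2 -1.08, adjusted p = 0.167). Control-MADM at P0 gained calls without single libraries too, of *Insm1* without replicate 2 (log2 0.73, adjusted p = 0.0321), of *Neurod1* and *Neurod4* without replicate 4 (-0.81 and -3.52, adjusted p = 0.0437 and 0.00167) and of *Gadd45g* without replicate 5 (-1.02, adjusted p = 0.0216).

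*Insm1* changed in opposite directions over this interval, from 72.4 ± 17.6 CPM (SD, n = 3) to 109.8 ± 25.9 CPM (SD, n = 5) in control-MADM and from 54.4 ± 14.6 CPM (SD, n = 4) to 20.9 ± 7.87 CPM (SD, n = 4) in cKO-*Eed*-MADM. The difference of the changes was -1.96 ± 0.34 (log2, SE; edgeR adjusted p = 0.000452), while the rise in control-MADM by itself did not pass the test (adjusted p = 0.0838). *Neurog1* was the other gene called, with a higher change in cKO-*Eed*-MADM (edgeR adjusted p = 0.000104). Its fitted difference of 9.59 (log2) depends on how the fit treats a group without a read and is no measure of size. Together these were 1 higher and 1 lower of 10, beside 1.17% of all genes called, 0.402% higher and 0.768% lower. Between *Eed*-MADM and control-MADM none of the 10 was called (0.0215% of all genes), with 1 at an unadjusted p under 0.05 (*Insm1*) and none in DESeq2.

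**Figure D4:**
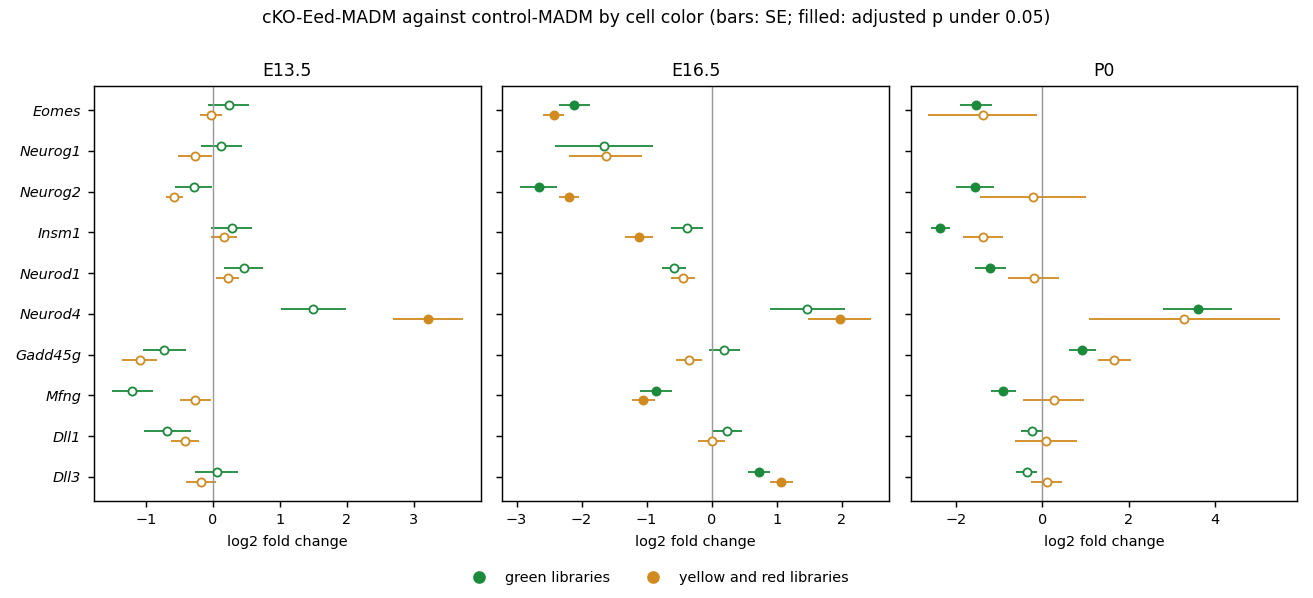
Log2 fold change of cKO-*Eed*-MADM against control-MADM for each gene (rows) at E13.5, E16.5 and P0 (panels), in green libraries and in yellow and red libraries, with standard errors as bars and filled points where the edgeR adjusted p is under 0.05. At E16.5 *Eomes* and *Neurog2* lie between -2.66 and -2.11 in both sets; the bars at P0 are wider for the yellow and red libraries, of which 2 stand apart.

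In control-MADM all cells are *Eed*+/+ and in cKO-*Eed*-MADM all are *Eed*-/-, so that yellow and red libraries give the same contrast in other sorted samples, with color as a covariate. The labels do not say whether these samples came from the same animals as the green ones. The sets may therefore not be independent. At P0, 2 of these libraries stood apart: cKO-*Eed*-MADM red replicate 1 had reads on 13133 genes, *Eed* at 32 CPM, within the control-MADM values of 30.1, 24.8, 36.2 and 32.6, and no read of *Eomes*, and control-MADM yellow replicate 2 had reads on 13181 genes. At E16.5 there were 2 cKO-*Eed*-MADM red libraries against 2 red and 1 yellow of control-MADM. As the yellow library is the only 1 of its color there, the color term takes it up, and the fitted fold change compares 2 red with 2 red libraries. *Eomes* had 48.9 and 45.8 CPM in cKO-*Eed*-MADM and 263, 255 and 89.5 in control-MADM, and *Neurog2* had 75.2 and 66 against 319, 333 and 182. Neither gene overlapped between the groups. *Eomes* (-2.43 ± 0.17 log2, SE), *Neurog2* (-2.19 ± 0.16), *Insm1* (-1.12 ± 0.22) and *Mfng* (-1.05 ± 0.18) were lower and *Neurod4* (1.97 ± 0.48) and *Dll3* (1.07 ± 0.17) were higher, with edgeR adjusted p from 6.54e-07 to 0.0201. These are 4 lower and 2 higher of 10, beside 8.10% of all genes (5.92% higher and 2.18% lower). The call of *Neurod4* was lost without control-MADM red replicate 1 or either cKO-*Eed*-MADM library (log2 1.48 to 2.07, adjusted p up to 0.114).

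At E13.5, 4 cKO-*Eed*-MADM libraries were set against 1 red and 1 yellow of control-MADM. *Neurod4* was higher, at 22, 45.8, 23.5 and 27.6 CPM against 4.99 and 1.81 (log2 fold change 3.21, SE 0.53, edgeR adjusted p = 0.0263), the 1 gene of 10 called beside 1.90% of all genes (1.01% higher). The call was lost without either control-MADM library, either red cKO-*Eed*-MADM library or yellow replicate 2 (adjusted p 0.0652 to 0.164), though the libraries did not overlap, and without yellow replicate 1 of cKO-*Eed*-MADM there were 3 calls, with *Neurog2* (log2 -0.60) and *Gadd45g* (-0.85) lower. *Eomes* was at 196, 257, 174 and 164 CPM against 217 and 179.6, with overlap. At P0 edgeR called none of 9 genes (0.00715% of all genes), with 2 at an unadjusted p under 0.05 (*Insm1* and *Gadd45g*) and 1 (*Gadd45g*) in DESeq2. Without the 2 libraries named above, an alternative added after seeing the data, *Insm1* was lower (log2 -1.80, edgeR adjusted p = 0.0262) and *Gadd45g* higher (1.81, adjusted p = 0.0254). *Neurog1* had reads in cKO-*Eed*-MADM red replicate 2 and yellow replicate 2 (9.65 and 1.37 CPM) and in 1 of the 4 control-MADM libraries (0.433 CPM).

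Other genes of the same pathways were counted from lists, each gene by its edgeR adjusted p over all genes tested. Beside these counts stand the 6.16% of all genes called higher and 2.42% lower in cKO-*Eed*-MADM than in control-MADM at E16.5, and the 14.2% higher and 10.0% lower at P0. Of 16 genes active in intermediate progenitors or just after, 3 were lower and 1 higher in cKO-*Eed*-MADM than in control-MADM at E16.5, and 8 were lower and 1 higher at P0. The netrin receptor gene *Unc5d* was the most changed by adjusted p at P0 (-3.42 ± 0.19 log2, SE, after -2.71 ± 0.29 at E16.5), with *Cux2*, a factor of upper-layer neurons and their progenitors (-1.10 ± 0.20 and -1.99 ± 0.20 at E16.5 and P0), and the corepressor gene *Rcor2* (-1.02 ± 0.16 and -1.84 ± 0.23). *Btg2* of the same list went the other way at P0, with means of 154 CPM in control-MADM and 588 in cKO-*Eed*-MADM. Of 13 other bHLH factors and partners tested, 4 were higher and 3 lower at E16.5, and 5 higher and 6 lower at P0. *Nhlh2* was higher at both ages (3.21 ± 0.35 and 3.17 ± 0.33), while *Id2*, an inhibitor of bHLH binding (-1 ± 0.10 and -1.38 ± 0.17), was lower at both. *Neurod2* (-1.43 ± 0.18 and -2.67 ± 0.20) and *Neurod6* (-1.38 ± 0.15 and -2.38 ± 0.33) were lower at both as well. The means of *Id1*, *Id3* and *Id4*, of the same list, went the other way from *Id2*. In control-MADM against cKO-*Eed*-MADM, *Id1* had 20.1 against 121.5 CPM at E16.5 and 85.0 against 238 at P0. *Id3* had 17.5 against 149 CPM and 224 against 800, and *Id4* 50.9 against 97.3 and 143 against 240.

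Of the Notch receptors, ligands, modifiers and targets outside the 10 genes, 1 of 18 was higher at E16.5 (*Notch2*, 1.22 ± 0.35) and 1 lower (*Hes6*, -0.87 ± 0.14, which opposes *Hes1* in neurogenic cells). The share of 1 in 18 higher is near the 6.16% over all genes. At P0 6 of 19 were higher and 1 lower in cKO-*Eed*-MADM, where 14.2% and 10.0% of all genes were. The ligand gene *Dll4* (2.03 ± 0.40) and the target genes *Hes1* (1.40 ± 0.31) and *Hey1* (1.70 ± 0.30) were among those higher. In green libraries none of these 3 lists had an edgeR call between *Eed*-MADM and control-MADM at any age. That contrast called 0%, 0%, 0.255% and 1.75% of all genes from E12.5 to P0. Nor was any gene of the lists called between any paradigms at E12.5 and E13.5, where at most 0.0372% of all genes were. With so few calls over all genes, a count of 0 says little about the lists.

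Markers of other cells moved in the same contrasts as the 10 genes, cKO-*Eed*-MADM against control-MADM, in which 6.16% of all genes were called higher and 2.42% lower at E16.5 and 14.2% higher and 10.0% lower at P0. Radial glia genes (3 of 9 higher at each age) summed to 835 to 1081 CPM in control-MADM against 1031 to 2014 in cKO-*Eed*-MADM at E16.5, and to 2804 to 7378 and 3621 to 7186 at P0. Of 8 cycling genes none was called at E16.5 and all 8 were lower at P0, at 443 to 615 CPM in control-MADM and 189 to 273 in cKO-*Eed*-MADM. Postmitotic projection neuron genes (3 of 9 lower at E16.5, 5 lower and 1 higher at P0) summed to 9763 to 10930 against 6713 to 8500 CPM at E16.5 and 4147 to 7751 against 1697 to 4405 at P0. Of this list, *Neurod2* and *Neurod6* are also among the bHLH factors and Tbr1 among the progenitor genes. The part of these shifts in the values of *Eomes*, *Neurog2* and the other genes was not tested.

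Several lists for cells outside the projection neuron lineage were higher in cKO-*Eed*-MADM, given here in the order control-MADM against cKO-*Eed*-MADM, beside the same shares of all genes called (6.16% higher at E16.5 and 14.2% at P0). Cajal-Retzius genes summed to 9.69 to 29.1 CPM in control-MADM and 166 to 374 in cKO-*Eed*-MADM at E16.5 (2 of 4 tested higher) and to 2.34 to 23.8 and 227 to 578 at P0 (4 of 4), with *Ebf2* at 0 in control-MADM at P0. Interneuron and subpallial genes were higher at E16.5 (6 of 7, 12.5 to 34.3 against 272 to 535 CPM, *Gsx2* at 0 in control-MADM) and lower at P0 (5 of 8, 377 to 922 against 186 to 265). Astrocyte genes summed to 78.3 to 123 and 179 to 494 CPM at E16.5 (3 of 5 higher) and 519 to 1582 and 1690 to 3169 at P0 (4 of 5), and oligodendrocyte lineage genes to 9.34 to 16.1 and 44 to 287 at E16.5 (2 of 5 higher, *Sox10* at 0 in control-MADM) and 805 to 2060 and 608 to 1674 at P0 (none called). At P0 microglial genes (4 of 4 higher, 5.6 to 15.5 against 85.7 to 197 CPM) and meningeal genes (3 of 3 higher, 7.02 to 13.8 against 82.6 to 173) also differed, after 2.12 to 5.26 against 3.58 to 46.1 and 4.15 to 7.86 against 9.83 to 24.6 at E16.5, with 2 of 4 and 1 of 3 higher there. Endothelial genes (1 and 2 tested, none called) lay at 2.74 to 10.6 and 3.46 to 25.9 CPM at E16.5 and 14.1 to 54.9 and 16.7 to 93.1 at P0, with *Kdr* at 0 in control-MADM at both ages and *Flt1* at E16.5. Red blood cell genes (1 of 5 higher at E16.5, none called at P0) lay at 20.4 to 49.3 and 6.51 to 447 CPM and at 2.14 to 221 and 1.05 to 49.3. In bulk libraries, transcripts from other cells and expression of these list genes in the sorted cells themselves cannot be told apart. The part of either in the values of *Neurog1*, *Neurod4*, *Gadd45g* and *Dll3* was not tested.

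Over the 12 group means, the genes with the pattern most like that of *Eomes*, among 12035 genes with a mean of at least 5 CPM, were *Drap1* (Pearson's r = 0.945), *Neurog2* (0.943), *3110039M20Rik* (0.943), *Epha5* (0.941) and *Smu1* (0.936). Among the other genes followed here, *Neurod1* (0.848), *Mfng* (0.844) and *Insm1* (0.825) stood closer to *Eomes* than *Neurog1* (0.692), *Dll1* (0.622) and *Gadd45g* (0.569). *Dll3* (-0.0567) and *Neurod4* (-0.0655) did not follow it. Over the 55 single libraries the r with *Eomes* was 0.87 for *Neurog2*, 0.753 for *Neurod1* and 0.567 for *Drap1*. These are descriptions across groups that share age, genotype, collection and sequencing depth, and carry no test.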

How the data were processed

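RNA of sorted MADM-labeled cells was sequenced by Smart-Seq2, which does not keep strand. The authors aligned reads with STAR to GRCm38 (mm10) and deposited, for each library, whole-number counts of reads per gene, of which the unstranded ones were used, without normalization. Their counts rest on an annotation not given in the sources used here. GENCODE M21, which matched 53274 of 53379 identifiers, gave symbols and positions. Replicates are the separate libraries in the labels. In the green libraries used, 18.7 to 40% of reads did not align uniquely, that is, they aligned nowhere or to several places. Of the uniquely aligned reads, 13.4 to 40.1% fell on no gene or on several, and these were left out of library sizes.

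Counts were tested with edgeR 4.0.16 (trimmed mean of M values, robust quasi-likelihood test, Benjamini-Hochberg over all genes tested, threshold 0.05) on R 4.3.3, after *Eed* had been checked in each group. One fit per age held the green libraries of the 3 paradigms with a mean count over 1 at E12.5 and over 10 later. A fit of E13.5, E16.5 and P0 gave changes with age and their differences between paradigms, and yellow and red libraries were fitted with color as a covariate. DESeq2 1.42.0 was among the alternatives. The fits were tested on simulated data. Closest libraries of a group differed by a chi-square of 6.15 per degree of freedom, so that none was taken as a duplicate of another. Levels per kilobase use the summed length of all annotated exons. The 10 genes were all named in every contrast, with *Eed*, up to 3 called genes with the lowest adjusted p per pathway list, and the 5 genes most like *Eomes*. The means of *Id1*, *Id3* and *Id4* were added beside *Id2*, and that of *Btg2* beside *Unc5d*, *Cux2* and *Rcor2*. The 10 genes, the 15 lists, of which 1 is not reported here, and the tests were chosen with earlier results of these data known.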

Additional observations from a re-analysis of the deposited data

Results flagged for a closer look

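In 5 of 90 groups of 4 to 10 libraries 1 library lay apart from the rest by Dixon's criterion at the 95% level, where chance flags about 1 in 20 groups. *Eomes* had 50.6 CPM in replicate 1 of cKO-*Eed*-MADM at P0, while the others had 26 to 27.7. *Neurog1* had 1.31 CPM in replicate 3 of *Eed*-MADM at P0 and 0 to 0.511 in the rest. *Neurod1* had 253 CPM in replicate 5 of cKO-*Eed*-MADM at E13.5, against 148 to 160. *Neurod4* had 5.4 CPM in replicate 4 of control-MADM at P0, where the others had 0 to 1.39, and this library decides whether the difference between *Eed*-MADM and control-MADM is called. *Dll3* had 39.8 CPM in replicate 9 of *Eed*-MADM at E12.5, below the 108 to 162 of the others.

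The change with age differed between cKO-*Eed*-MADM and control-MADM for 4 genes by the edgeR test of the difference itself. From E13.5 to E16.5 the difference was -2.36 (log2) for *Eomes* and -2.39 for *Neurog2*, and from E16.5 to P0 it was -1.96 for *Insm1* and 9.59 for *Neurog1*, a fitted value set by the control-MADM libraries without a read.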

How the results depend on the processing

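Of the counts of genes called (of 10, or of 9 at P0), 505 recomputed values stayed within 1.5 times the reported count and 28 did not. Without the filter on low counts, cKO-*Eed*-MADM had 1 call at E12.5 (*Dll1*) against each other paradigm and 1 at E13.5 (*Mfng* against control-MADM, *Gadd45g* against *Eed*-MADM), 7 genes changed from E16.5 to P0 in control-MADM, the calls of *Neurog2*, *Neurod1* and *Gadd45g* against control-MADM and of *Eomes* and *Neurog2* against *Eed*-MADM at P0 were lost, and 4 changes from E16.5 to P0 differed between cKO-*Eed*-MADM and control-MADM. DESeq2 gave 1 call in each of the same contrasts at E13.5, 3 in yellow and red libraries at E13.5 and 1 at P0, where leaving out the 2 libraries with reads on under 14000 genes, chosen after seeing the data, gave 2.

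With single libraries left out, in groups of 2 to 5, the calls of cKO-*Eed*-MADM against control-MADM ranged from 0 to 1 at E13.5, from 2 (without control-MADM replicate 1) to 5 at E16.5, from 4 (without control-MADM replicate 4 or cKO-*Eed*-MADM replicate 2) to 7 at P0, and from 0 to 3 in yellow and red libraries at E13.5. They ranged from 1 to 2 for *Eed*-MADM against control-MADM at P0, from 3 to 5 for E16.5 against E13.5 in control-MADM, from 1 to 3 for P0 against E16.5 in cKO-*Eed*-MADM, and from 0 to 2 for the difference of changes from E13.5 to E16.5. Which property of a library moved a count was not tested. Of the genes named from the lists, *Col1a2* changed direction from E13.5 to E16.5 in *Eed*-MADM without E13.5 replicate 2 (log2 0.117), with values down to -3.05 without other libraries.

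Replicate numbers were not taken to pair the libraries. Over all ages, 10 of 36 same-numbered pairs had a correlation of deviations over 0.1, and 9 of 45 libraries stood closest to their own number. At P0 these were 4 of 12 pairs, with a highest correlation of 0.48, and 5 of 15 libraries. Whether numbers pair libraries at that age was not tested. With the replicate number as a block, 4 genes were called for E16.5 against E13.5 in control-MADM and 4 for P0 against E16.5 in *Eed*-MADM, against 5 each without it, as *Neurog1* (adjusted p = 0.0619) and *Neurod4* (0.105) were lost. In *Eed*-MADM from E13.5 to E16.5 the block lost *Insm1* (0.0907) and added *Neurod1* (0.0335).

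The median biological coefficient of variation was 0.63 in the fit of E12.5, 0.365 in that of E13.5, then 0.281 for E16.5 and 0.273 for P0, and control-MADM and *Eed*-MADM held 2 libraries each at E13.5. Genes of few reads, *Neurog1* and *Neurod4*, have wide standard errors.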
